A study of Rattus norvegicus with 12 samples.

Results

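The dual-specificity MAP kinase phosphatases were followed in neonatal rat aortic smooth muscle cells whose thrombin receptors had been stimulated. The family was taken as 8 genes, Dusp1, Dusp2, Dusp4, Dusp5, Dusp6, Dusp10, Dusp14 and Dusp16, and a probe set was assigned to one of them when the array annotation gave it exactly 1 symbol. Of the 8 genes, 7 had such a probe set (10 probe sets), out of 14217 genes in the whole series. Of these, 6 genes with 9 probe sets passed the filter on dim probe sets, among 9906 genes and 18625 probe sets tested. Dusp2 was below that filter, and Dusp16 had no probe set with a single symbol, so it has no value here.

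The cells were primary cultures from newborn rat aorta, starved of serum overnight before stimulation. There were 6 groups of 2 arrays, in 3 experiments that each had its own basal (unstimulated) group. The stimuli were 2 U/ml thrombin, 25 µM TRAP (a peptide that activates thrombin receptors), and 25 µM TRAP after 24 h with 200 ng/ml pertussis toxin (PTX), which uncouples receptors from Gi proteins. Stimulated cells were collected after 120 min. The basal arrays of the PTX experiment are labelled with no agent, and it is not stated whether their cells received PTX. The labels do not say that the 2 arrays of a group came from separate cultures, so p-values reflect the spread between arrays, which may be technical.

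MAP kinases are switched on by phosphorylation of a threonine and a tyrosine in their activation loop, and dual-specificity phosphatases remove both phosphates. Many of these phosphatase genes are themselves induced by the kinases they switch off, which makes them a classical negative feedback. Dusp5, in the nucleus, and Dusp6, in the cytoplasm, act selectively on ERK. Dusp1, Dusp2 and Dusp4 are nuclear enzymes encoded by immediate-early genes and act on several MAP kinases. Dusp10 and Dusp16 prefer JNK and p38, and Dusp14 is a small atypical member. In vascular smooth muscle, thrombin receptors couple through G proteins to ERK and to other MAP kinases.

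The sequences just upstream of 3 members are shown because these members gave the clearest and the most different responses below. They are the 250 bases before the annotated gene start, from RefSeq on rat build GRCr8, written 5′ to 3′ on the strand of the gene, with every match to a searched motif in capitals. Coordinates are chr1:262543524-262543773 (+ strand) for Dusp5, chr7:35979354-35979603 (+ strand) for Dusp6 and chr10:17184603-17184852 (+ strand) for Dusp1.
Dusp5: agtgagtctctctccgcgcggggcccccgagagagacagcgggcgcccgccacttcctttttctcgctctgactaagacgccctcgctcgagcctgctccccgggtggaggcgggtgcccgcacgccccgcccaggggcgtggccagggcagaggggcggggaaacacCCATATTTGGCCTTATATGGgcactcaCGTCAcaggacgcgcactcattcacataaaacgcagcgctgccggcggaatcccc
Dusp6: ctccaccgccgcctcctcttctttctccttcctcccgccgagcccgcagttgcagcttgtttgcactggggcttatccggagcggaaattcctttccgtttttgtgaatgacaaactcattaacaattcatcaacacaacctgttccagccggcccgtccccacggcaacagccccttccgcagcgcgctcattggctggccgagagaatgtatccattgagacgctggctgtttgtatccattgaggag
Dusp1: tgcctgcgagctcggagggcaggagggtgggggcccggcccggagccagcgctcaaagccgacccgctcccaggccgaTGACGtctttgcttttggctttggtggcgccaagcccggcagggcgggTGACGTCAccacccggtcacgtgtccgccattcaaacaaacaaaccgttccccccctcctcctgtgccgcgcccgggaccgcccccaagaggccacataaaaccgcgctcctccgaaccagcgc
The motifs searched on both strands were the CArG box (bound by serum response factor), the AP-1 site TGANTCA and the ETS motif CCGGAA. The cyclic AMP response element TGACGTCA and its shorter form TGACG were searched in the same way. The shorter form lies within the full element, so matches to the pair overlap. The Dusp5 window held a pair of adjoining CArG boxes, CCATATTTGG at 82 to 73 bases and CCTTATATGG at 72 to 63 bases before the start, and TGACG on the other strand at 55 to 51 bases. A CArG box was present in 1.5% of 33469 rat promoter windows of the same length. The Dusp1 window held TGACGTCA at 124 to 117 bases before the start and a further TGACG at 172 to 168 bases, motifs found in 1.59% and 18.2% of all windows. The Dusp6 window held no match to any motif searched, though it holds GGAA, the shorter ETS core, which was not searched. Promoters were found for 7 of the 8 genes, with 9 windows in all. TGACG was in 5 of the 9 windows. Each of the other motifs was in 1 of them, and all windows held TGANTCA in 6.34% and CCGGAA in 12.6%. A match describes the letters of the window and is not a site of binding.

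Arrays had median signals of 39.5 to 53.4, replicate arrays correlated at r = 0.983 to 0.991 across probe sets, and r between the thrombin experiment and the TRAP experiments was 0.913 to 0.941. All 10 smooth muscle markers listed were tested, with summed signals of 22198.8 to 35246 per array. Of 8 endothelial markers on the array 1 was tested (Tek, 20.1 to 85.7), with summed signals of 60.4 to 159.8 and Pecam1 at 0.7 to 7.5. Of 9 leukocyte markers 2 were tested (Cd14, 296.9 to 578.4, and Csf1r, 10.2 to 63.2), with summed signals of 364.7 to 678.7 and Ptprc at 0.4 to 12. Of 7 fibroblast markers on the array, 6 were tested, with summed signals of 6230.9 to 10580.8. The arrays of the TRAP experiments fell into 2 sets that went against their labels. Saa3, a serum amyloid gene, had signals of 15.9 to 22.8 on the low-Saa3 arrays, namely the basal TRAP pair with replicate 2 of TRAP and replicate 1 of TRAP after PTX. It had 222.5 to 420.9 on the high-Saa3 arrays, namely the basal PTX pair with replicate 1 of TRAP and replicate 2 of TRAP after PTX. Thus 1 stimulated array per group (here called out-of-set) did not share the set of its basal pair. Whether the labels of replicate 1 of these groups were exchanged is not known, and the labels were kept as given. For members, values with the set taken into account are given beside the main ones.

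Dusp5 rose in all 3 experiments. Its signals on replicates 1 and 2 were 321 and 273.6 in the basal thrombin group and 2406.5 and 2083.1 after thrombin. They were 56.9 and 79.7 in the basal TRAP group against 194.5 and 458.4 after TRAP. In the PTX experiment they were 88.4 and 104.8 before and 350.8 and 190.2 after stimulation. Each stimulated array lay above both of its own basal arrays, and the thrombin arrays were the brightest of the 12. In bulk RNA, a change in the number of expressing cells and a change in RNA per cell cannot be told apart. Mean signals rose 7.55-fold with thrombin, 4.78-fold with TRAP and 2.80-fold with TRAP after PTX.

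All log2 changes here are given on the log2(signal + 16) scale, with ± for the SE. The SE comes from the spread within all 6 groups of the fit. Dusp5 rose by 2.85 ± 0.31 with thrombin (n = 2 against 2, limma adjusted p = 0.000123), ranking 7 among the rises of the 18625 probe sets. With TRAP it rose by 1.92 ± 0.31 (limma adjusted p = 0.00342), and with TRAP after PTX by 1.29 ± 0.31 (limma adjusted p = 0.0437). The spread between replicates was wide in both TRAP groups, followed the array sets and enters the SE of all 3 responses. Measured against the basal arrays of the same set, the low-Saa3 arrays rose by 2.51 (TRAP replicate 2) and 2.13 (TRAP after PTX replicate 1). The high-Saa3 arrays rose by 0.91 (TRAP replicate 1) and 0.88 (TRAP after PTX replicate 2). Dusp5 therefore differed more between sets than between TRAP with and without PTX inside a set, a difference that was not tested. Were the replicate 1 labels exchanged, the mean rise would be 2.32 with TRAP and 0.89 with TRAP after PTX. With the array set as a block the TRAP after PTX response was 0.79 (limma adjusted p = 0.0324), and without the out-of-set arrays it was 0.88 (limma adjusted p = 0.0574). The call for TRAP after PTX was lost in 16 of 27 other settings. The TRAP response was 2.42 and 2.51 with the block and without those arrays, and without basal TRAP replicate 1 it was 1.72 (limma adjusted p = 0.0567).

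**Figure D1:**
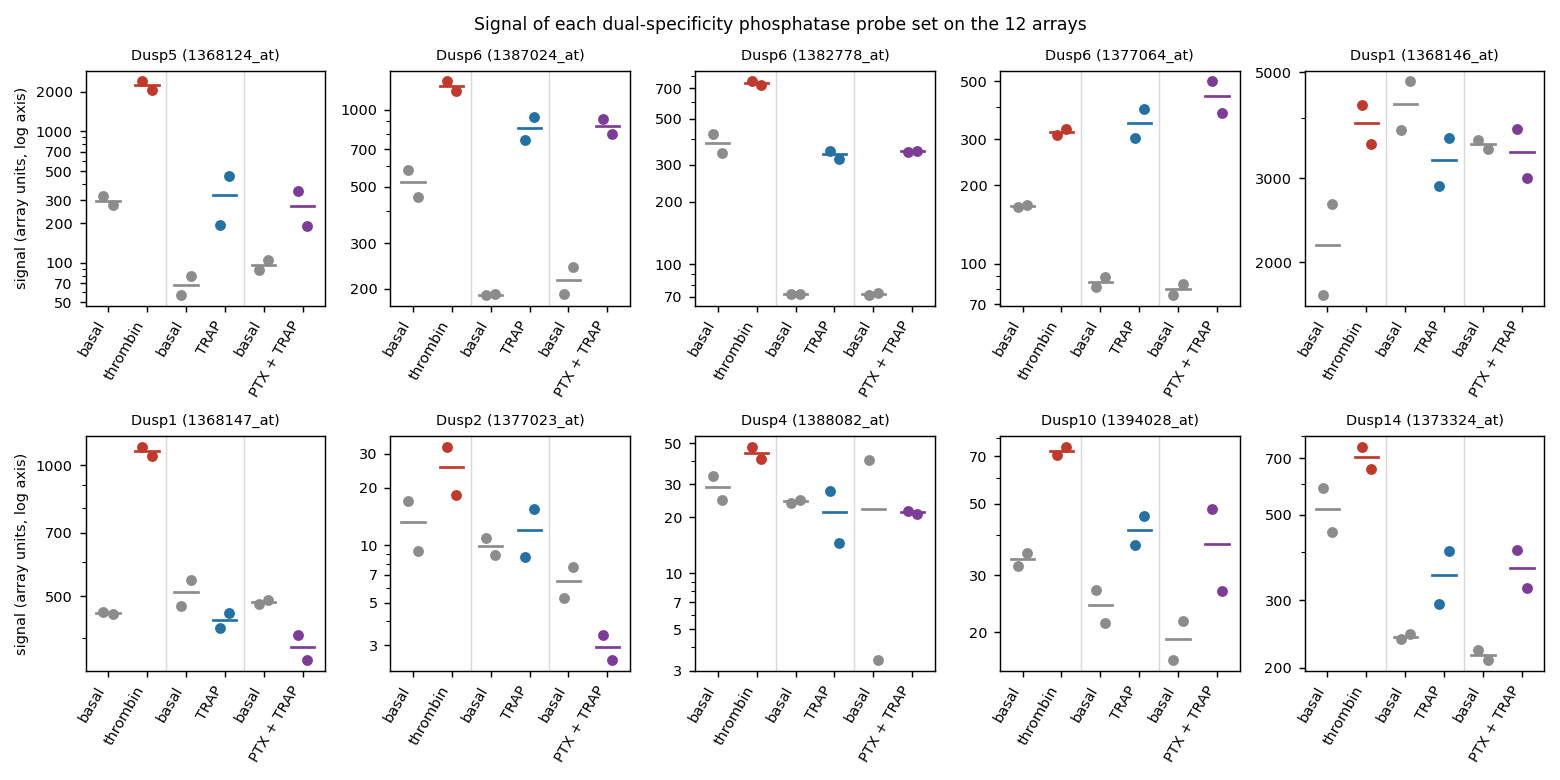
Signal (array units, log axis) of the 10 probe sets of the 7 measured phosphatase genes on each of the 12 arrays, with points for arrays and bars for the mean of the 2 arrays of a group. Dusp5, Dusp6, Dusp10 and Dusp14 separate stimulated from basal arrays in every experiment, while Dusp1 separates upward only with thrombin and Dusp4 stays at or below 47.9.

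Dusp6 rose in every experiment and on every one of its probe sets. The probe set that represents it (1387024_at, the brightest of 3) had basal signals of 582.5 and 456.4 in the thrombin experiment and 1288.4 and 1176.9 after thrombin. Signals went from 188.6 and 190.2 to 758.3 and 936.1 with TRAP, and from 190 and 243 to 915 and 804.1 with TRAP after PTX. Stimulated and basal arrays did not overlap in any experiment, and both thrombin arrays were the brightest of all 12. The rise was 1.23 ± 0.14 with thrombin (limma adjusted p = 0.000228), 2.06 ± 0.14 with TRAP (limma adjusted p = 3.53e-06) and 1.92 ± 0.14 with TRAP after PTX (limma adjusted p = 9.40e-06).

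The other probe sets of Dusp6 also rose in all 3 experiments, with some differences in order. Probe set 1382778_at went from 71.8 and 71.9 to 351.6 and 322.1 with TRAP, and from 421.8 and 343.5 to 755.7 and 722.6 with thrombin. Its log2 changes were 0.93 with thrombin, 2.00 with TRAP and 2.05 with TRAP after PTX, and those of 1377064_at were 0.87, 1.83 and 2.24, all past the threshold. On 1377064_at the thrombin arrays (310.3 and 326.8) lay below TRAP replicate 2 (391.6) and both TRAP after PTX arrays (499.4 and 378.2). Over the 12 arrays the 3 probe sets correlated pairwise at r = 0.95, 0.94 and 0.84, as a description of shared arrays. Dusp6 rose in both array sets. Against the basal arrays of the same set, 1387024_at rose by 2.20 on the low-Saa3 and 1.79 on the high-Saa3 arrays, and 1382778_at by 1.99 and 2.06. With the array set as a block 1387024_at rose by 2.18 with TRAP and 1.80 with TRAP after PTX, and without the out-of-set arrays by 2.21 and 1.83, past the threshold each time.

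Dusp1, the broad nuclear phosphatase, rose with thrombin and passed the threshold in neither TRAP experiment. Its signals (1368146_at) were 1709.1 and 2647.3 before and 4271.1 and 3540.9 after thrombin. In the TRAP experiment they were 3785 and 4782.1 before and 2890.3 and 3644.5 after, and in the PTX experiment 3599.6 and 3458.2 before and 3804.8 and 3003.4 after. Thrombin arrays lay above their basal arrays, TRAP arrays lay below theirs, and TRAP after PTX arrays overlapped theirs. The log2 change was 0.87 ± 0.19 with thrombin (limma adjusted p = 0.0185), -0.39 ± 0.19 with TRAP (limma adjusted p = 0.336) and -0.06 ± 0.19 with TRAP after PTX (limma adjusted p = 0.903). Without basal thrombin replicate 1 the thrombin value was 0.55 (limma adjusted p = 0.188), and without thrombin replicate 1 it was 0.73 (limma adjusted p = 0.165), 2 of the 4 among 26 other settings in which the call was lost.

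The other Dusp1 probe set, 1368147_at, was steadier. It went from 460.6 and 455.1 to 1104.8 and 1050.7 with thrombin, a rise of 1.21 ± 0.10 (limma adjusted p = 1.54e-05). With TRAP it went from 475.7 and 545.4 to 422.7 and 456.5, and with TRAP after PTX from 480.6 and 491.1 to 407.8 and 355.6, neither past the threshold. The pair of Dusp1 probe sets correlated at only r = 0.35 over the 12 arrays. In the average of the 3 responses 1368147_at rose by 0.22 (limma adjusted p = 0.0267). There 1368146_at changed by 0.14 (limma adjusted p = 0.463), so the probe sets differed in the call but not in direction. Within the low-Saa3 and high-Saa3 sets the mean change was -0.19 and -0.26 on 1368146_at and -0.23 and -0.31 on 1368147_at.

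Dusp4 and Dusp2, the other nuclear inducible members, were dim. Dusp4 had signals of 33.3 and 24.7 before and 47.9 and 41 after thrombin, and its thrombin arrays lay above both basal arrays. In the TRAP experiments its 8 signals lay between 3.4 and 40.8, with stimulated arrays among the basal ones. Its log2 changes were 0.43, -0.14 and 0.16 in the 3 experiments, none past the threshold. With the array set as a block its TRAP values were -0.26 and 0.29, also not past it. Dusp2 had a mean signal of 11.7, below the filter at 22.7, with 17 and 9.3 before and 32.7 and 18.3 after thrombin and 2.5 to 15.4 elsewhere. Fitted without the filter its changes were 0.50, 0.11 and -0.25, and none passed the threshold.

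Dusp10 stood for the JNK and p38 phosphatases alone. Its signals were 32 and 35.3 before and 70.8 and 75 after thrombin, 27.1 and 21.4 before and 37.2 and 45.9 after TRAP, and 16.4 and 21.7 before and 48.2 and 26.8 after TRAP with PTX. Every stimulated array lay above its own basal arrays, and mean signals were 2.17, 1.71 and 1.97 times the basal ones. The single responses were 0.84 ± 0.23 (limma adjusted p = 0.0501), 0.52 (limma adjusted p = 0.271) and 0.58 (limma adjusted p = 0.202). Averaged over the 3 experiments Dusp10 rose by 0.65 ± 0.13 (limma adjusted p = 0.00508). The thrombin value lay at the threshold and passed it in 11 of 25 other settings. By array set, the mean change in the TRAP experiments was 0.65 (low Saa3) and 0.45 (high Saa3).

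Dusp14 had small positive changes in all 3 experiments. Its signals were 585.3 and 449.4 before and 750.6 and 658.2 after thrombin, 237.4 and 244.6 before and 293.2 and 402.2 after TRAP, and 222.7 and 209.1 before and 405.4 and 322.2 after TRAP with PTX. No stimulated array overlapped its basal arrays. The change passed the threshold with TRAP after PTX (0.70 ± 0.16, limma adjusted p = 0.0350) and in the average (0.54 ± 0.09, limma adjusted p = 0.00171), but not with thrombin (0.44, limma adjusted p = 0.151) or TRAP (0.48, limma adjusted p = 0.129). With the array set as a block, the TRAP response passed (0.67, limma adjusted p = 0.0158) and the TRAP after PTX response did not (0.52, limma adjusted p = 0.081). The call for TRAP after PTX was lost in 10 of 27 other settings. By array set, the mean change was 0.71 (low Saa3) and 0.48 (high Saa3).

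Read over the family, 3 of 6 tested members rose with thrombin (Dusp5, Dusp6 and Dusp1), where 2.63% of all probe sets rose. With TRAP 2 rose (Dusp5 and Dusp6, background 1.84%), and with TRAP after PTX 3 rose (Dusp5, Dusp6 and Dusp14, background 1.68%). In the average of the 3 responses 4 rose, namely Dusp5 by 2.02 ± 0.18, Dusp6 by 1.74 ± 0.08, Dusp10 and Dusp14, against a background of 5.55%. None fell, where 2.1%, 2.07%, 1.03% and 7.62% of all probe sets did in the same order. The median change over the 6 members was 0.85, 0.50 and 0.64 in the 3 responses and 0.60 in the average, beside -0.04 over all probe sets in each. Both stimulated arrays lay above both basal arrays for 6 of 6 members with thrombin (18.8% of all probe sets), 4 with TRAP (19.2%) and 4 with TRAP after PTX (18.1%). With TRAP both lay below for 1 member, Dusp1 (29.4% of all probe sets).

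Set side by side, the ERK-selective Dusp5 and Dusp6 had a median change of 2.04 with thrombin, 1.99 with TRAP and 1.61 with TRAP after PTX, and Dusp10 had 0.84, 0.52 and 0.58. The nuclear Dusp1 and Dusp4 had medians of 0.65, -0.26 and 0.05. On the representing probe sets the ERK-selective genes thus had the largest changes of the tested members in each experiment. The order was not tested, and the other Dusp1 probe set (1.21 with thrombin) lay above both other Dusp6 probe sets there. Dusp10 is dim enough for the added 16 to compress its change. With thrombin its mean signal was 2.17 times basal, beside 2.37 for Dusp6 on 1387024_at and 1.93 and 1.91 on 1382778_at and 1377064_at. With TRAP and TRAP after PTX the Dusp10 ratios were 1.71 and 1.97, beside 3.97 or more on every Dusp6 probe set. With Dusp16 not measured here, the JNK and p38 phosphatases among the 8 rest on 1 gene. Dusp7, a further cytoplasmic ERK-selective phosphatase outside the 8 and named after its values were seen, changed by 0.04, 0.30 and 0.18, none past the threshold. Dusp8, a JNK and p38 phosphatase outside the 8, was also named after its values were seen and did not pass the filter. Fitted without the filter, Dusp8 changed by 0.21, -0.64 and -0.44, none past the threshold.

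**Figure D2:**
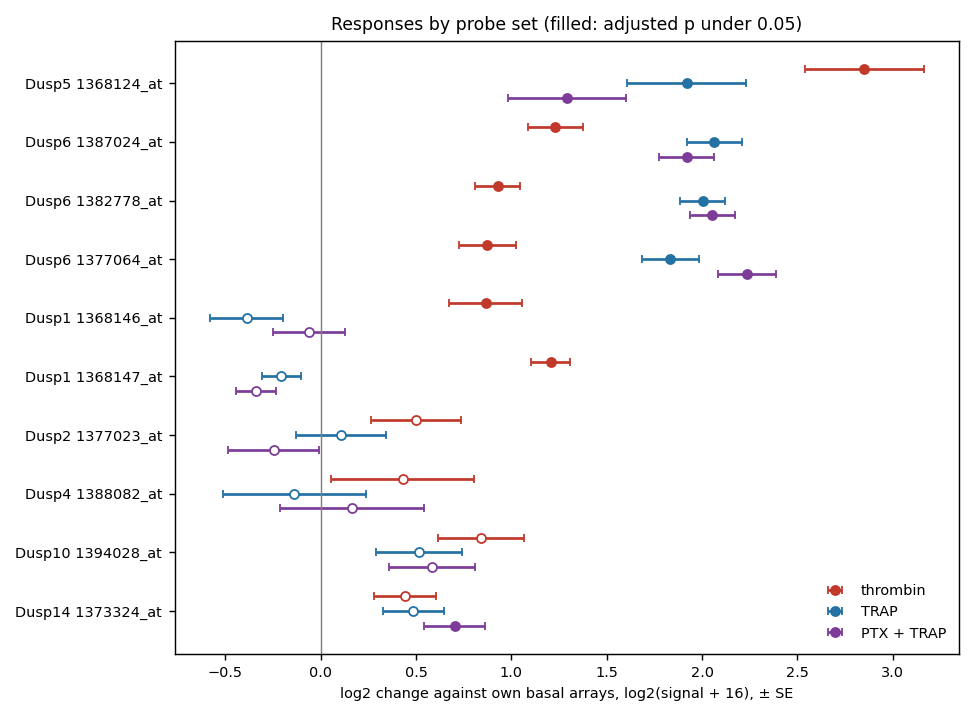
Log2 change of each member's probe sets against their own basal arrays (x axis, log2(signal + 16)) with thrombin, TRAP and TRAP after PTX, with bars for the SE of the limma fit and filled points for an adjusted p under 0.05 (Dusp2 from the fit without the filter). Dusp5 has its largest value with thrombin (2.85) and the 3 probe sets of Dusp6 have their smallest there, while both Dusp1 probe sets lie above 0 only with thrombin.

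The thrombin and TRAP responses were then compared with each other. On the representing probe sets the main limma fit called no member (0 of 6, where 0.532% of all probe sets were called), and other settings called Dusp6 or Dusp1. At an unadjusted p under 0.05, 2 of 6 differed, beside 10.1% of all probe sets. Dusp5 differed by 0.93 (95% interval -0.01 to 1.88, limma adjusted p = 0.508), Dusp6 by -0.83 (-1.27 to -0.39, limma adjusted p = 0.111) and Dusp1 by 1.25 (0.68 to 1.83, limma adjusted p = 0.0595). Dusp6 and Dusp1 each passed on 1 further probe set. Dusp6 on 1382778_at rose less with thrombin, with a difference of -1.08 ± 0.17 (limma adjusted p = 0.00964), while 1377064_at gave -0.96 (limma adjusted p = 0.0707). Dusp1 on 1368147_at changed by 1.21 with thrombin and by -0.21 with TRAP, with a difference of 1.41 ± 0.15 (limma adjusted p = 0.000912). With the array set as a block Dusp5 differed by 0.43, and Dusp6 passed on all 3 probe sets, at -0.95 on 1387024_at (limma adjusted p = 0.0470). Without the out-of-set arrays Dusp5 differed by 0.35, 1387024_at gave -0.98 (limma adjusted p = 0.0970), 1382778_at -1.02 (limma adjusted p = 0.0525) and 1377064_at -1.14 (limma adjusted p = 0.0324). Dusp1 on 1368146_at passed with quantile normalization (limma adjusted p = 0.0369) and array weights (limma adjusted p = 0.0401), and gave 1.09 with the array set as a block (limma adjusted p = 0.0920). On 1368147_at it passed with the block and without the out-of-set arrays (1.34 and 1.36). For Dusp6 the smaller rise started from a higher basal signal. Dusp5 also had a higher mean basal signal in the thrombin experiment (297.3, beside 68.3 in the TRAP experiment). Its change there was the larger (2.85, beside 1.92 with TRAP). The part of the basal level was not tested. The thrombin and TRAP arrays come from different experiments, so the stimulus and the experiment cannot be told apart in these differences.

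PTX changed no member's TRAP response past the threshold (0 of 6 by limma, background 0.129%), and 0 of 6 had an unadjusted p under 0.05, beside 8.28% of all probe sets. The TRAP after PTX response minus the TRAP response was -0.63 for Dusp5 (95% interval -1.57 to 0.32), -0.14 for Dusp6 (-0.58 to 0.30), 0.33 for Dusp1 (-0.25 to 0.91), 0.07 for Dusp10 (-0.62 to 0.76), 0.22 for Dusp14 (-0.27 to 0.71) and 0.30 for Dusp4 (-0.84 to 1.45). These intervals are too wide to show that PTX left the responses alike, Dusp5 in particular. The Dusp5 value was -1.63 with the array set as a block (limma adjusted p = 0.0397), -1.63 without the out-of-set arrays (limma adjusted p = 0.0583), and -0.20 when the stimulated arrays were compared directly (limma adjusted p = 0.999). In the first pair of settings the basal groups lie in different sets. With the block, the set effect was estimated on stimulated arrays alone. Without the out-of-set arrays, the stimulated arrays left also lie in different sets (458.4 with TRAP, low Saa3, and 190.2 with TRAP after PTX, high Saa3). Set and experiment therefore cannot be told apart in either setting. Inside a set, Dusp5 rose by 2.51 (TRAP) and 2.13 (TRAP after PTX) on low-Saa3 arrays, and by 0.91 and 0.88 on high-Saa3 arrays.

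**Figure D3:**
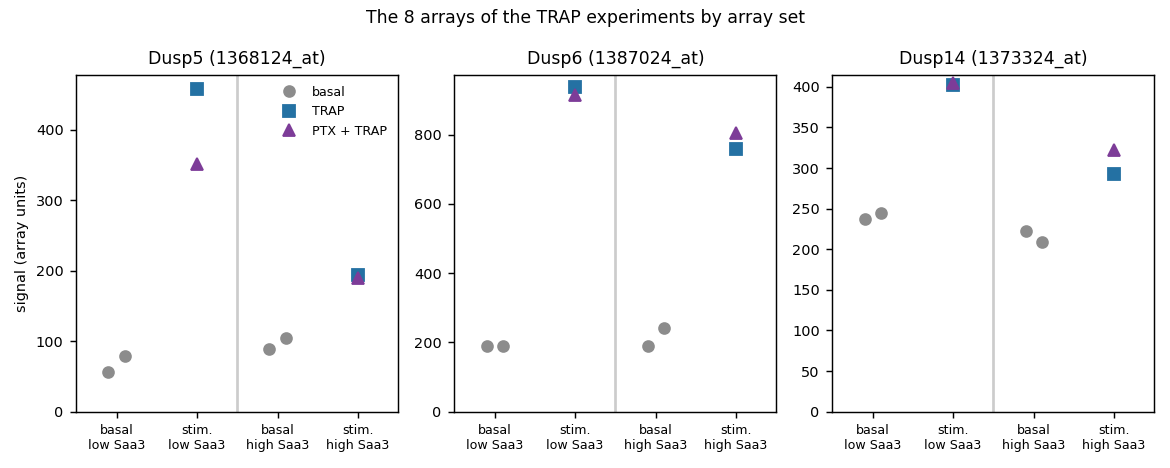
Signal (array units) of Dusp5, Dusp6 and Dusp14 on the 8 arrays of the TRAP experiments, drawn by array set (low or high Saa3), with circles for basal arrays, squares for TRAP and triangles for TRAP after PTX. Dusp5 rises by 2.32 (log2) in the low-Saa3 and 0.89 in the high-Saa3 set, while Dusp6 rises by 2.20 and 1.79.

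Basal levels of the family differed between experiments. Among the 3 basal groups 4 of 6 members differed (Dusp5, Dusp6, Dusp1 and Dusp14, limma F test), where 42.2% of all probe sets did. Against the mean of the other basal groups, the basal thrombin arrays were higher for Dusp5 by 1.69 ± 0.27, for Dusp6 by 1.29 ± 0.13 and for Dusp14 by 1.12 ± 0.14, past the threshold by limma (3 of 6 members, where 21.6% of all probe sets were higher). Dusp6 gave 2.18 and 0.89 on its other probe sets. Dusp1 was lower on 1368146_at, with a difference of -0.86 ± 0.16 (24.9% of all probe sets were lower), but -0.12 on 1368147_at did not pass. Dusp10 (0.41) and Dusp4 (0.29) did not pass. Summed marker signals differed too. In the basal thrombin, TRAP and PTX arrays the fibroblast sum had means of 6378.8, 10227.3 and 10096, and the smooth muscle sum 22789.8, 30726 and 30786.8. The leukocyte sum had 632.7, 375.75 and 468, and the endothelial sum 135.2, 87.25 and 126.4. Their part in the differences of the phosphatases was not tested.

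For each member the genes with the most similar pattern were sought among 9905 other genes, by Pearson's r over the 12 arrays after subtracting the mean of each experiment's basal arrays. Dusp5 was most like Myadm (0.99), Areg (0.98), which encodes the EGF receptor ligand amphiregulin, and Zfp697 (0.98). Dusp6 was most like Frmd6 (0.99), Dnajb1 (0.99), a heat shock co-chaperone, and Socs5 (0.98). Dusp1 was most like Scyl2 (0.97), Lima1 (0.95) and Map3k3 (0.95), and Dusp10 most like Abl2 (0.99), a tyrosine kinase, Ppp1r18 (0.97) and Areg (0.96). Dusp14 was most like Snhg4 (0.98), Mgat1 (0.96) and Txnrd1 (0.96). The dim Dusp4 reached no more than 0.89 (Sema6b and Camsap1) and 0.88 (Serpinb1a). These values describe arrays that share libraries and stimuli, and the highest of 9905 correlations is high by selection.

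Genes around the phosphatases in the pathway were followed as lists. Of all probe sets, 1.68% to 2.63% rose and 1.03% to 2.1% fell in a single response. In the average 5.55% rose and 7.62% fell. Of 21 other dual-specificity phosphatases listed, 17 were on the array and 10 were tested. None passed the threshold in a single response by limma, and in the average Dusp19 fell by 0.39 (limma adjusted p = 0.0100) while Dusp11 (0.20), Dusp12 (-0.27) and Dusp23 (-0.51) did not pass. None of 9 tested kinases and scaffolds of the ERK module passed in any response, the scaffold Ksr1 (-0.41) and ERK5 gene Mapk7 (0.31) being those with the smallest p in the average. Without the out-of-set arrays Mapk7 passed in the average (0.50, limma adjusted p = 0.0379).

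Of 15 tested kinases of the JNK and p38 modules, 2 rose and 1 fell in the average, where 5.55% of all probe sets rose and 7.62% fell. Map2k3, which activates p38, rose in all 3 responses, by 0.99 with thrombin, 0.55 with TRAP and 1.19 with TRAP after PTX (limma adjusted p = 7.26e-06 in the average). Without the out-of-set arrays its TRAP value of 0.59 missed the threshold (limma adjusted p = 0.0854). Map3k8, a kinase upstream of several MAP kinases, rose by 0.66 in the average (limma adjusted p = 0.0125) and Map3k1 fell by 0.47 (limma adjusted p = 0.00951). Map3k4 (-0.36) missed the threshold, and passed it with the array set as a block (limma adjusted p = 0.0486). Of 9 kinases downstream of MAP kinases, 1 rose and 1 fell in the average, beside the same shares of all probe sets. Mapkapk2, a p38 substrate, rose by 0.28 (limma adjusted p = 0.00503) and Mknk2 fell by 0.24 (limma adjusted p = 0.0320).

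Among 15 tested genes known as ERK targets, 7 rose with thrombin, 6 with TRAP, 5 with TRAP after PTX and 7 in the average. None fell. Of all probe sets, 2.63%, 1.84%, 1.68% and 5.55% rose in the same order, and 2.1%, 2.07%, 1.03% and 7.62% fell. The transcription factor Fosl1 rose by 3.48 and Egr1 by 1.99 in the average, the EGF receptor inhibitor Errfi1 by 1.70 and the ephrin receptor Epha2 by 1.18, all past the threshold by limma. Among 10 genes known as targets of the stress-activated kinases, 4 rose with thrombin, 5 with TRAP and 4 with TRAP after PTX, beside the same shares. With the array set as a block, 6 ERK targets rose with TRAP and 6 with TRAP after PTX, and of the stress kinase targets 4 rose and 1 fell with TRAP and 5 rose with TRAP after PTX. In the average 7 rose and 1 fell (Gadd45a, by 0.43, named after its values were seen). Ptgs2, the inducible cyclooxygenase, rose by 2.01, the mRNA-destabilising Zfp36 by 1.25, the chemokine Cxcl1 by 3.04 and Jun by 0.52. With thrombin alone Cxcl1 (1.72, limma adjusted p = 0.131) and Jun (0.08, limma adjusted p = 0.799) did not pass. Cxcl1 rose by 4.77 with TRAP and 2.64 with TRAP after PTX, and Jun by 0.69 and 0.79, all past the threshold. With the array set as a block the Cxcl1 values were 3.69 and 3.72. The median change in the average was 0.29 for the ERK targets and 0.54 for the stress kinase targets, beside 1.88 for Dusp5 and Dusp6.

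**Figure D4:**
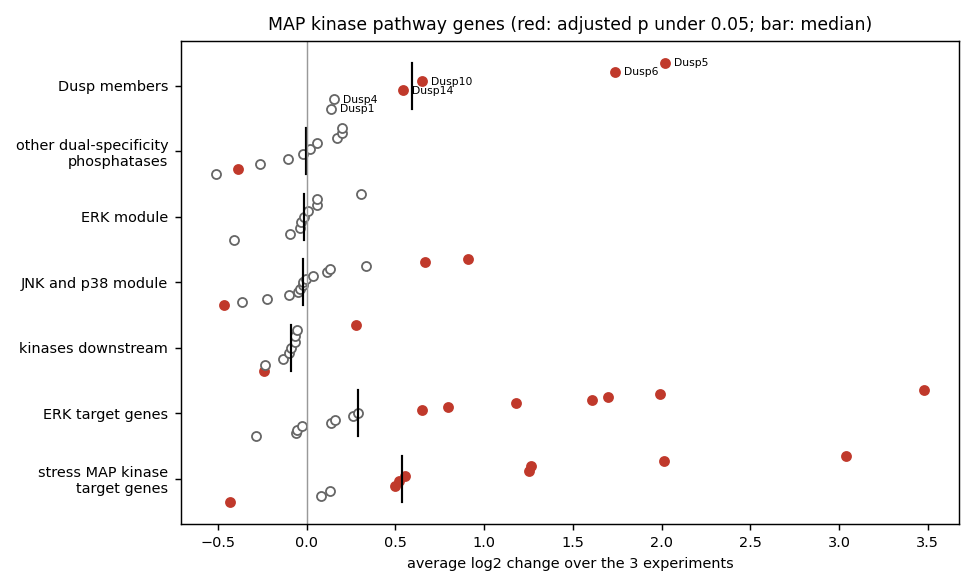
Average log2 change over the 3 experiments for each tested gene of the phosphatase family and of the pathway lists, with red points for an adjusted p under 0.05 by limma and a bar for the median of each list. The kinase lists centre near 0, while Dusp5 and Dusp6 (2.02 and 1.74) lie among the higher ERK targets such as Egr1 (1.99).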

How the data were processed

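Biotin-labelled RNA of 12 samples was measured on 1-colour arrays with 31099 probe sets. The deposited signals are linear intensity values. GCOS 1.4 is named by the submitters' processing notes. A genome build and probe annotation version are not given in the sources used here. Each array has a mean of 200.066 to 200.076 once the lowest and highest 2% of signals are left out. Detection calls were not used, so no fold was marked as a lower bound, and the number of arrays limits the precision.

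From these, log2(signal + 16) was computed, which understates the changes of dim genes. After 57 control probe sets were left out, probe sets whose mean log2 signal exceeded the 40th percentile were kept. The brightest of a gene's kept probe sets stands for it. The 6 groups were fitted together in R 4.3.3 with limma 3.58.1 (linear models with moderated variances that follow intensity, 6 residual and 7.50 prior degrees of freedom), with 2-sided tests, Benjamini-Hochberg adjustment over all 18625 probe sets and a threshold of 0.05. The script was tested on simulated data. Intervals are 95%. Replicate numbers were not taken as pairs, since same-numbered arrays deviated together at only r = 0.134, 0.104 and 0.0217 in the 3 experiments.

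The members and lists were chosen with earlier results of these data known. Named genes are the members, up to 4 genes of each list, by smallest p in the average response, and the 3 genes most like each tested member. Other genes are said to be named after their values were seen. Alternatives covered the pseudocount, filter, scaling, model, array weights, probe set rule, replicate block, array sets and leaving out each array.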

Additional observations from a re-analysis of the deposited data

Results flagged for a closer look

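The thrombin and TRAP responses differed, by a test of the difference itself in the limma fit, on 2 probe sets of the family. For Dusp6 (1382778_at) the thrombin response minus the TRAP response was -1.08 ± 0.17 (limma adjusted p = 0.00964), since its 4 thrombin-experiment signals went from 421.8 and 343.5 to 755.7 and 722.6 and its TRAP signals from 71.8 and 71.9 to 351.6 and 322.1. The other Dusp6 probe sets gave -0.83 (limma adjusted p = 0.111) and -0.96 (limma adjusted p = 0.0707), in the same direction and not past the threshold. Without the out-of-set arrays 1382778_at gave -1.02 and missed the threshold (limma adjusted p = 0.0525). For Dusp1 (1368147_at) the difference was 1.41 ± 0.15 (limma adjusted p = 0.000912), with both thrombin arrays above and both TRAP arrays below their own basal arrays. Its other probe set gave 1.25 (limma adjusted p = 0.0595). The stimulus and the experiment cannot be told apart in either.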

How the results depend on the processing

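With 2 arrays a group, small changes and the dim members Dusp2, Dusp4 and Dusp10 are the least certain. Of 184 counts of members called under 28 other settings, 168 stayed within 1.5 times the main count. For TRAP after PTX the count fell from 3 to 1 with no filter, with no intensity trend, with array weights and with the out-of-set arrays removed. For thrombin minus TRAP it went from 0 to 1 with quantile normalization and array weights (Dusp1) and with the array sets as a block (Dusp6), and to 2 with the mean of all probe sets of a gene (Dusp6 and Dusp1). For the PTX effect it went from 0 to 1 (Dusp5) with the array sets as a block. The settings on array sets, the use of all 4 basal TRAP arrays as control and the direct comparison of stimulated arrays were chosen after seeing the data. Leaving out each array gave 2 to 4 members with thrombin, 1 to 2 with TRAP, 1 to 3 with TRAP after PTX, 4 to 4 in the average, 0 to 2 for thrombin minus TRAP, 0 to 0 for the PTX effect and 4 to 5 among basal groups. The replicate block within an experiment gave 3, 2, 3 and 4 members in the 3 responses and their average, and that with a number shared by all experiments lost Dusp5 in TRAP after PTX (limma adjusted p = 0.0634), though the numbers are not known to pair the arrays. The calls of Dusp6 in the 3 responses held in every setting run. The causes of these changes were not tested.

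None of the values that changed sign passed the threshold. For Dusp1 in TRAP after PTX the value was 0.000863 under median centring. The PTX effect was 0.102 (mean of probe sets) and 0.0253 (direct comparison) for Dusp6, -0.0088 with the array set as a block or without out-of-set arrays for Dusp1, -0.33 in both of those and -0.13 directly for Dusp10, and -0.16 in both for Dusp14. Dusp4 with TRAP was 0.00139 against all 4 basal arrays. Leaving out 1 array gave -0.26 to 0.18 for Dusp14 in thrombin minus TRAP, -0.22 to 0.36 for Dusp10, -0.31 to 0.021 for Dusp6 and -0.47 to 1.08 for Dusp4 in the PTX effect, -0.61 to 0.94 for Dusp4 and -0.23 to 0.11 for Dusp1 in TRAP after PTX, and -0.11 to 0.41 in the average and -0.40 to 0.12 with TRAP for Dusp4. Map2k5 in the average ranged from -0.19 to 0.0086 in the same way.

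Over all probe sets, 882 were called with thrombin (576 with only the arrays compared), 727 with TRAP (1111 with array weights), 505 with TRAP after PTX (334 with no trend, 260 with only the arrays compared, 305 with array weights, 166 without out-of-set arrays), 99 for thrombin minus TRAP (23 with no trend) and 24 for the PTX effect (13 with no filter, 0 with no trend, 1 with only the arrays compared, 5 with the mean of probe sets, 9 without out-of-set arrays, 1 directly). Leaving out 1 array gave 342 to 918, 208 to 759, 149 to 539, 33 to 140 and 0 to 47. Median centring raised the share of higher calls to 70.0% with thrombin, 62.3% with TRAP, 76.4% with TRAP after PTX and 64.7% in the average (52.6% with quantile normalization), and it was 75% with only the arrays compared and 72.9% without out-of-set arrays for TRAP after PTX. The average response uses all arrays, so a fit of only the arrays compared was not run for it.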
